A study of Mus musculus with 16 samples.

Results

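The 10 genes described here, Cpa3, Serpine2, F2r, P2rx7, Mdga1, Atp8a2, Gsn, Myh10, Aldh1b1 and Mgst2, encode enzymes, receptors and structural proteins rather than transcription factors. Out of 22114 genes they were chosen by their read counts, which were far higher in DN3 thymocytes that carry the Lmo2 transgene than in those that do not, so that difference is described below without a test. All 10 were present in the count tables of both experiments and all 10 passed the filter on low counts. Held against the data, the description of strong induction applied to 8 of them. Aldh1b1 and Mgst2 were raised by less than 4-fold with the transgene, and the levels of Aldh1b1 overlapped with those of cells without it.

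LMO2 is a small protein of LIM domains that does not bind DNA itself. It bridges basic helix-loop-helix proteins such as TAL1 or LYL1, E proteins, LDB1 and GATA factors into a complex that controls genes of blood stem cells, and it is normally silenced as progenitors become T cells. When its expression persists in the thymus, as in T-cell acute lymphoblastic leukemia, DN3 cells gain the ability to renew themselves. DN3 cells are the stage at which the T-cell receptor beta chain is rearranged and tested.

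Sorted DN3 (CD4-CD8-CD25+CD44-) thymocytes of C57BL/6 mice were profiled by sequencing of polyadenylated RNA in a pair of experiments. In the first, total DN3 cells were taken from 6-week-old wild-type mice (n = 3 libraries), p21-/- mice lacking the cell-cycle inhibitor encoded by Cdkn1a (n = 2), Lmo2Tg mice (n = 2) and Lmo2Tg;p21-/- mice (n = 2). In the second, 2-month-old H2B-GFP;Lmo2Tg mice, heterozygous for a doxycycline-driven histone H2B-GFP allele, were labelled with doxycycline for 6 weeks and chased for 2 weeks, and their DN3 cells were sorted into GFPhi cells that had kept the label (n = 3) and GFPlo cells that had diluted it by dividing (n = 3). All 6 libraries of the second experiment therefore carry the transgene, and it has no control without it. The transgene is driven by the CD2 promoter, which is active across the T lineage, and its level is not that of the native gene. The study describes the sequenced sorted samples as pooled and gives pools of 3 to 5 mice for global expression, so the spread between libraries is a spread between pools and not between single mice. Total counts were 13864936 to 16837667 per library in the first experiment and 26861394 to 31106213 in the second. The smallest level these depths can show, taken as 3 counts and covering counting error only, was at most 0.216 CPM (read counts scaled to library size) in the first and 0.112 CPM in the second. These limits use the total counts alone, whereas the CPM levels of genes given below are after TMM normalisation.

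The labels were checked on Lmo2 and Cdkn1a. Lmo2 was at 0.306, 0.0636 and 0.242 CPM in the wild-type libraries and 0.176 and 0.190 CPM in the p21-/- libraries, which is 1 to 5 reads. It was at 41.4 and 100.4 CPM in the Lmo2Tg libraries and 85.4 and 107.0 CPM in the Lmo2Tg;p21-/- libraries, so the lower Lmo2Tg library held less than the other 3 transgenic ones. Cdkn1a was at 36.5, 37.5 and 49.0 CPM in wild-type and at 14.3 and 17.7 CPM in p21-/- cells (log2 fold change -1.36 ± 0.17 SE, edgeR adjusted p = 0.00821). In Lmo2Tg cells it was at 32.8 and 26.3 CPM, against 4.35 and 3.50 CPM in Lmo2Tg;p21-/- cells. Reads on Cdkn1a were thus fewer but not absent in the p21-/- libraries. In the sorted cells, Lmo2 was at 35.8, 37.5 and 42.3 CPM in GFPlo replicates 1 to 3, at 53.8 and 29.5 CPM in GFPhi replicates 1 and 2, and at 285 CPM in GFPhi replicate 3. GFPhi replicate 3 stood apart from the other sorted libraries more widely. Of 11581 genes tested, 238 (2.06%) were in GFPhi replicate 3 more than 4-fold below their lowest level in the other 5 libraries, against 2 to 26 genes when each of the other libraries was held against the rest. Results on the sorted cells are therefore given with and without it.

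The CD25 gene Il2ra, which the sort selects for, was at 1411 to 1689 CPM in the first experiment and 1563 to 3225 CPM in the second. Cd4, which it selects against, was at 1.78 to 7.39 CPM and 3.32 to 6.86 CPM.

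Promoter sequence was available in RefSeq's table (GRCm38.p6, the build of the mm10 counts) for 9 of the 10 genes, as 12 start sites. The 250 bases before each start were searched on both strands for letters bound by the partners of LMO2 and by other blood factors. CANNTG, the E-box bound by helix-loop-helix proteins, was in 10 of the 12 windows against 66.2% of all 32851 promoters of that length. The E-box CAGCTG was in 4 of 12 (13.0% of all) and CAGGTG in 2 of 12 (17.2%), both being special cases of CANNTG. The GATA motif AGATAA was in 2 of 12 (9.99%), the RUNX motif TGTGGT in 5 of 12 (14.0%) and the ETS motif CCGGAAG in 0 of 12 (6.91%). The pairing of CTG, the end of an E-box, with GATAA after any 8 bases was in 1 of 12 windows against 0.502% of all promoters, and the pairing with 7 bases between was in 0 of 12 (0.746%). The 1 window was that of Cpa3, where the match shares letters with CAGCTG and AGATAA. Both windows with AGATAA are printed 5′ to 3′ on the strand of the gene, with the window of Aldh1b1, the least raised gene in the p21 wild-type background, for comparison. Capitals mark CANNTG and AGATAA or its reverse. The printed windows end at the base before the start site and lie outside exons annotated in GENCODE M21, as do those of Gsn. Other windows counted above overlap such exons, by 250 bases for Mdga1, 178 for Myh10 and 31 for Serpine2. The overlap was 21 bases for F2r, 16 for the first start site of P2rx7 and 1 for Mgst2. A match of letters is a description of the sequence and not a binding site.
Cpa3, chr3:20242182-20242431, minus strand: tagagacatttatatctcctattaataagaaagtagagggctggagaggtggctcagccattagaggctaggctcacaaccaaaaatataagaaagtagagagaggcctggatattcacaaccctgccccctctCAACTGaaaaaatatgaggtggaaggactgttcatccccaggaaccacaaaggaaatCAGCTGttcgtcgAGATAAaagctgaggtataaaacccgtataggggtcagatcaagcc
P2rx7, second start site, chr5:122650133-122650382, plus strand: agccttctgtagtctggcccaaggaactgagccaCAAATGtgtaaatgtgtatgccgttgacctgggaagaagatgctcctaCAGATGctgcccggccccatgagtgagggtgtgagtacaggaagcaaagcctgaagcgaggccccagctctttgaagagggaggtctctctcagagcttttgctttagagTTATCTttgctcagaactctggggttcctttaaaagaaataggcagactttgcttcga
Aldh1b1, chr4:45798772-45799021, plus strand: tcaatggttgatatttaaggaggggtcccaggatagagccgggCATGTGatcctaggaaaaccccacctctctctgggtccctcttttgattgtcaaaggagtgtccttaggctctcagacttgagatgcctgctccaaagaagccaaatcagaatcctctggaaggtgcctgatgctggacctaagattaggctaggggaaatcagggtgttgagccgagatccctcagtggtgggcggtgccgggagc

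The 10 genes lie on 9 chromosomes (GRCm38, GENCODE M21). Cpa3 (chr3:20215620-20242181) and Mgst2 (chr3:51660360-51682677) share chromosome 3 at a distance. The others are Serpine2 (chr1:79794197-79861180), Gsn (chr2:35256380-35307892), Aldh1b1 (chr4:45799022-45804604), P2rx7 (chr5:122643911-122691432), Myh10 (chr11:68691559-68816632), F2r (chr13:95601803-95618487), Atp8a2 (chr14:59638540-60197179) and Mdga1 (chr17:29827949-29970087).

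Across total DN3 cells the 10 genes fell into a group of 8 that were more than 4-fold higher with the transgene in both p21 backgrounds and a pair, Aldh1b1 and Mgst2, that were well expressed without it and little higher with it. Their median log2 fold change was 4.18 for Lmo2Tg minus wild-type and 4.03 for Lmo2Tg;p21-/- minus p21-/-, beside medians over all 11840 genes of -0.013 and -0.0043. In 9 of 10 genes the lowest of the 4 transgenic libraries lay above the highest of the 5 others, as it did in 17.9% of all genes tested. These values chose the genes, and nothing is read from them beyond the sizes.

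Among the proteases and their inhibitors, Cpa3 encodes carboxypeptidase A3, an exopeptidase best known from mast cell granules. Its level was 94.2, 98.8 and 86.1 CPM in wild-type and 67.7 and 73.3 CPM in p21-/- libraries, and 672 and 333 CPM in Lmo2Tg and 827 and 545 CPM in Lmo2Tg;p21-/- libraries. The libraries without the transgene were close to each other and the transgenic ones spread widely, with the Lmo2Tg library that held less Lmo2 being the one at 672 CPM. The log2 fold change was 2.43 without and 3.28 with loss of p21. Serpine2 encodes a secreted serpin that inhibits thrombin and urokinase. It lay at 1.59, 1.59 and 1.27 CPM in wild-type and 2.05 and 1.46 CPM in p21-/- cells, and at 58.7 and 65.1 CPM in Lmo2Tg and 63.2 and 63.7 CPM in Lmo2Tg;p21-/- cells. The 4 transgenic libraries were nearly level, 41.5-fold above wild-type and 35.9-fold above p21-/- in the fit.

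Among the receptors, F2r encodes the thrombin receptor PAR1. It was at 18.6, 14.3 and 16.1 CPM in wild-type and 17.9 and 17.5 CPM in p21-/- cells, and at 385 and 285 CPM in Lmo2Tg and 401 and 315 CPM in Lmo2Tg;p21-/- cells. The fold was 20.5 in the presence and 20.2 in the absence of p21. P2rx7 encodes an ion channel opened by extracellular ATP. It was at 3.43, 4.39 and 3.45 CPM in wild-type and 3.58 and 4.81 CPM in p21-/- cells. With the transgene it reached 108 and 80.4 CPM in Lmo2Tg and 146 and 151 CPM in Lmo2Tg;p21-/- cells, so every library lacking p21 was above both that had it. Mdga1 encodes a membrane-anchored immunoglobulin protein that binds neuroligins. It was at 8.03, 8.71 and 5.32 CPM in wild-type, 10.4 and 13.0 CPM in p21-/-, 335 and 261 CPM in Lmo2Tg and 496 and 358 CPM in Lmo2Tg;p21-/- cells, with a log2 fold change of 5.34 and 5.19.

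Atp8a2 had the largest fold of the 10. It encodes a P4-ATPase, a flippase that moves phosphatidylserine to the inner leaflet of the membrane. Its level was 1.41, 1.02 and 1.27 CPM in wild-type and 0.762 and 1.96 CPM in p21-/- cells, and 113 and 121 CPM in Lmo2Tg and 89.4 and 116 CPM in Lmo2Tg;p21-/- cells. The fold was 94.3 in the p21 wild-type and 76.2 in the p21-/- background, which placed it at 26 and 25 in the order of all genes by log2 fold change. Exons of Atp8a2 share 241 bases with Nupl1 on the same strand and 2169 bases with antisense genes, so some reads of those genes may be counted with it. The deposited tables are named for counting without strand in the total DN3 cells and for reverse-strand counting in the sorted cells, and no other source used here gives the setting. P2rx7 shares 119 bases of exon with the microRNA gene Mir8115 on its own strand.

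The cytoskeletal genes were in the same group of 8. Gsn encodes gelsolin, which severs and caps actin filaments, and was at 8.76, 9.03 and 8.83 CPM in wild-type, 6.80 and 5.76 CPM in p21-/-, 52.4 and 43.2 CPM in Lmo2Tg and 49.0 and 54.8 CPM in Lmo2Tg;p21-/- cells. Myh10 encodes the heavy chain of non-muscle myosin IIB. It was at 25.2, 24.4 and 17.2 CPM in wild-type and 24.9 and 30.9 CPM in p21-/- cells, and at 376 and 336 CPM in Lmo2Tg and 378 and 358 CPM in Lmo2Tg;p21-/- cells. The 4 transgenic libraries again lay close together, with a fold of 16.0 and 13.2 for Myh10 and of 5.38 and 8.25 for Gsn.

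Aldh1b1 and Mgst2 differed from the other 8. Aldh1b1 encodes a mitochondrial aldehyde dehydrogenase. It was at 68.3, 64.2 and 78.0 CPM in wild-type and 68.1 and 58.2 CPM in p21-/- cells, at 106 and 68.5 CPM in Lmo2Tg and at 160 and 155 CPM in Lmo2Tg;p21-/- cells. One Lmo2Tg library thus lay inside the range of wild-type, and the fold was 1.24 in the presence of p21 and 2.50 in its absence. Mgst2 encodes a microsomal glutathione transferase that can make leukotriene C4. It was at 47.6, 51.3 and 41.2 CPM in wild-type, 42.8 and 34.4 CPM in p21-/-, 78.5 and 67.1 CPM in Lmo2Tg and 94.6 and 88.3 CPM in Lmo2Tg;p21-/- cells. Its groups did not overlap, but the fold was 1.56 and 2.37. By log2 fold change of Lmo2Tg minus wild-type, Aldh1b1 stood at 2682 and Mgst2 at 1491 among 11840 genes, while 5 of the 10 genes were within the first 100 in both backgrounds.

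**Figure D1:**
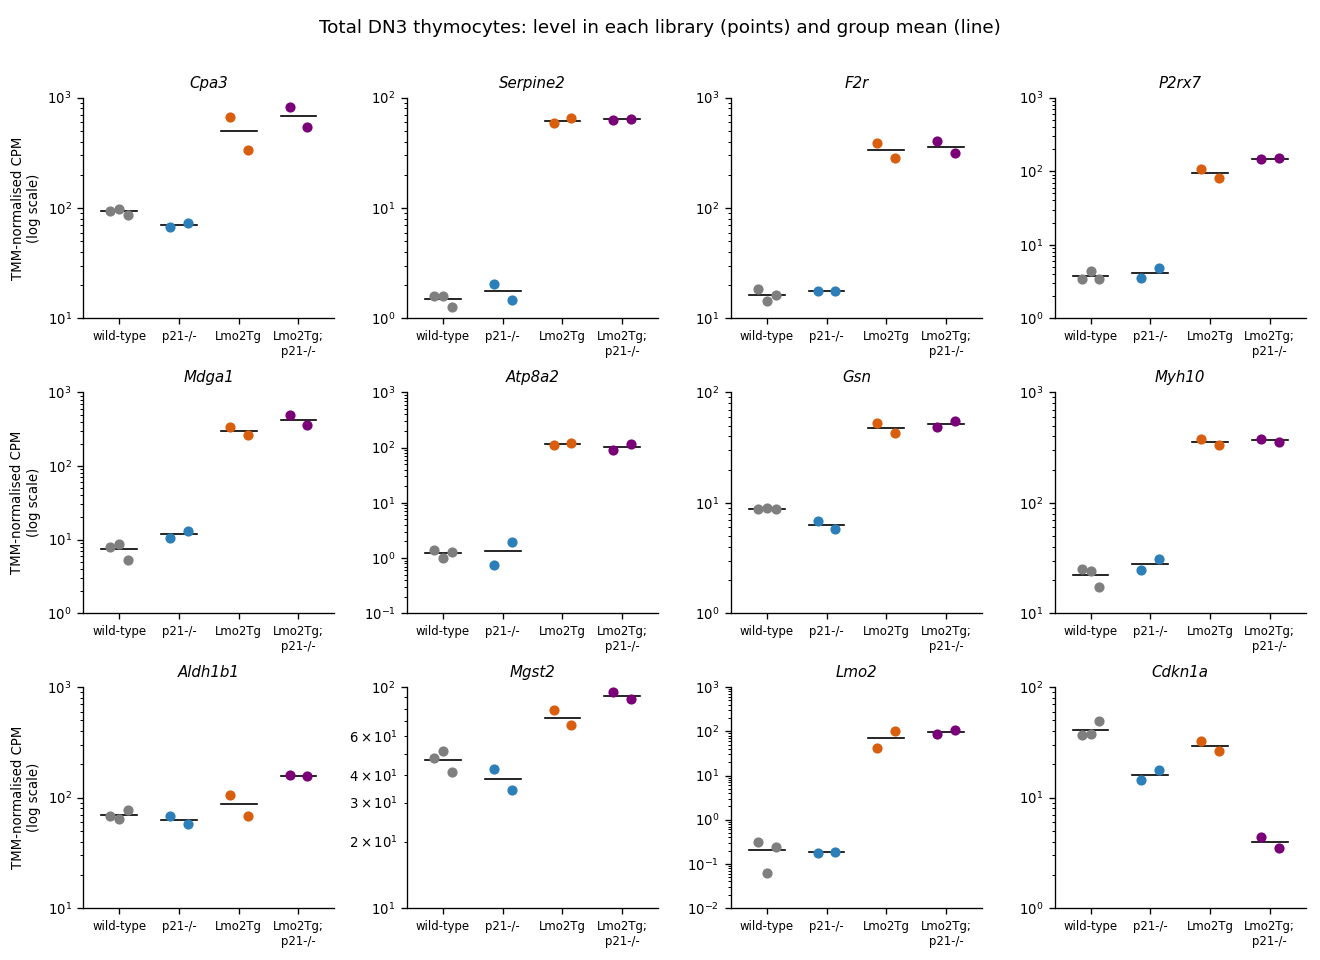
Level of each of the 10 genes, Lmo2 and Cdkn1a in total DN3 thymocytes, as TMM-normalised CPM on a log axis, with a point for each library and a line at the group mean. Atp8a2 went from at most 1.96 CPM without the transgene to at least 89.4 CPM with it, whereas Aldh1b1 in Lmo2Tg cells overlapped with the controls.

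To set the genes against each other, levels were taken per kilobase of exon. The length covered all exons annotated for a gene, which can exceed the transcript expressed. On this scale Cpa3 had the highest level of the 10 in every group, with a mean of 61.3 CPM per kb in wild-type and 331 CPM per kb in Lmo2Tg cells. In wild-type cells it was followed by Aldh1b1 (30.5 CPM per kb) and Mgst2 (12.6 CPM per kb), and Serpine2 (0.179 CPM per kb) and Atp8a2 (0.0800 CPM per kb) came last. In Lmo2Tg cells F2r (100.5 CPM per kb) took the place after Cpa3, followed by Aldh1b1 (37.9 CPM per kb), Myh10 (34.1 CPM per kb) and Mdga1 (31.3 CPM per kb). Serpine2 and Atp8a2 remained last at 7.47 and 7.61 CPM per kb. Their high folds thus ended, on this scale, below the level of Mgst2 at 19.7 CPM per kb. Without division by length, Atp8a2 (mean 117 CPM) was above Mgst2 (72.8 CPM) in Lmo2Tg cells and Serpine2 (61.9 CPM) was below it.

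Lists of related genes, taken from the function of each member and without the members, were read in edgeR's quasi-likelihood test over all genes, where 36.6% of genes were called for Lmo2Tg against wild-type (19.7% higher, 16.9% lower) and 30.7% for Lmo2Tg;p21-/- against p21-/- (16.3% higher, 14.4% lower). Of 12 carboxypeptidases 3 were expressed enough to test. Cpq rose (log2 fold change 0.97 and 1.36 in the 2 backgrounds, p21 wild-type first) and Cpd, a membrane carboxypeptidase of the Golgi, fell by 2.16 and by 2.11 on the log2 scale. Of 9 serpins, plasminogen activators and clotting genes tested, 5 rose and 1 fell in the p21 wild-type background and 3 rose and 1 fell in the other. Thrombomodulin (Thbd), the thrombin cofactor on endothelium, rose by 1.98 and 1.47, Serpinb9, a granzyme B inhibitor, by 0.40 and 1.08, and Serpini1 fell by 0.89 and by 0.99.

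Among 8 genes of the protease-activated receptors and their G proteins that were tested, 4 and 2 rose and 1 fell. The G protein subunit Gnaq, which couples such receptors to phospholipase C, fell by 1.73 and by 1.96. Arhgef1, a guanine nucleotide exchange factor gene (0.34 and 0.46), and the G protein subunit gene Gna12 (0.44 and 0.29) rose slightly. Of 7 tested genes of P2X receptors and extracellular nucleotides, 3 rose in each background and 3 or 2 fell. Nt5e, which makes adenosine from AMP, rose by 2.14 and 2.09, while Entpd1 (log2 fold change -1.88 and -0.91), which hydrolyses ATP, and the ATP-gated channel P2rx1 (-1.17 and -1.61) fell.

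Of 10 P4-ATPase flippase genes tested, 4 rose and 0 fell in each background, led by Atp9a (2.33 and 2.20), with Atp10a (0.55 and 0.60) and Atp8b2 (0.32 and 0.43). Their median log2 fold change was 0.14 and 0.30, beside -0.013 and -0.0043 over all genes. Non-muscle myosin II genes and regulators had 5 of 8 higher and 0 lower in each background, with a median of 0.34 and 0.35. Myh9, the heavy chain of non-muscle myosin IIA, rose by 0.56 and 0.65, the phosphatase subunit Ppp1r12a by 0.39 and 0.48, and the kinase Rock1 by 0.42 and 0.41. In the gelsolin family and actin list, 1 of 9 rose and 1 fell in the p21 wild-type background and 4 rose and 1 fell in the other, with Scin (1.45 and 1.81) higher and Capg (-1.18 and -0.84) lower. The aldehyde dehydrogenases went down where they moved, with 4 and 3 of 11 lower and 0 higher, among them Aldh3b1 (-2.24 and -1.95), Aldh5a1 (-1.91 and -1.90) and Aldh7a1 (-0.64 and -0.65). Of the 6 leukotriene and related enzymes tested, Lta4h, which makes leukotriene B4, was called in the same direction in both backgrounds (-0.62 and -0.74). The list held 1 higher and 2 lower, then 0 higher and 2 lower.

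Of 14 tested genes of the LMO2 complex and its stem cell targets, 8 rose and 0 fell in Lmo2Tg against wild-type, and 9 rose and 0 fell in Lmo2Tg;p21-/- against p21-/-. The homeobox gene Hhex rose by 4.60 and 4.90, from at most 3.69 CPM without the transgene to at least 69.9 CPM with it. Lyl1 rose by 3.77 and 4.67, from at most 3.94 to at least 36.2 CPM. Gata2 was called as well (log2 fold change 3.20 and 4.52), but was at 0 to 3 reads without the transgene and at 8 to 49 reads with it. The list's median was 0.83 and 1.28.

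**Figure D2:**
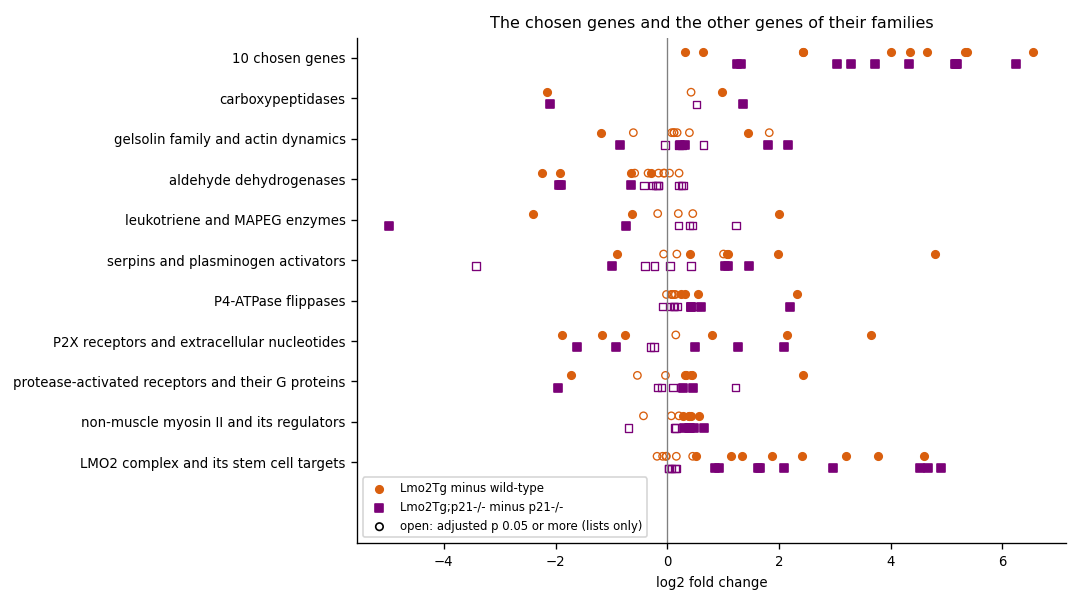
Log2 fold change with the Lmo2 transgene for the 10 chosen genes and for the genes of 10 related lists, with circles for Lmo2Tg minus wild-type and squares for Lmo2Tg;p21-/- minus p21-/-. Filled symbols of the lists passed an adjusted p of 0.05 and open ones did not, and symbols of the chosen genes carry no test. Most list genes lie within a few log2 units of 0, although some, among them Hhex, Lyl1 and Gata2, lie above 2. Of the 10 chosen genes 8 lie above 2, on the same difference by which they were chosen.

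Loss of p21 alone was read in cells without the transgene. For p21-/- against wild-type, 0 of 10 passed (edgeR adjusted p = 0.984 for each), where 0.11% of all genes did, 3 of 10 had an unadjusted p under 0.05 against 391 of all 11840 genes (3.3%), and DESeq2 and limma-voom each called 0 of 10. Log2 fold changes ran from -0.50 for Gsn to 0.67 for Mdga1.

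In cells with the transgene, loss of p21 went with higher Aldh1b1 and P2rx7. Of the 10 genes 2 were called for Lmo2Tg;p21-/- against Lmo2Tg and both were higher, where 6.94% of all genes were called and 3.35% were called higher. Aldh1b1, at 160 and 155 CPM against 106 and 68.5 CPM, had a log2 fold change of 0.86 ± 0.17 (SE, edgeR adjusted p = 0.0171). P2rx7, at 146 and 151 CPM against 108 and 80.4 CPM, had 0.66 ± 0.14 (adjusted p = 0.0230). For both genes each Lmo2Tg;p21-/- library lay above both Lmo2Tg libraries. Mdga1 (0.52 ± 0.19, adjusted p = 0.126), Cpa3 (0.45 ± 0.27, adjusted p = 0.319) and Mgst2 (0.33 ± 0.13, adjusted p = 0.145) did not pass, and the other 5 had log2 fold changes between -0.19 and 0.12. DESeq2 and limma-voom called the same 2 genes, where they called 1048 and 711 of all 11840 genes. The calls were lost when some libraries were left out. This happened without the Lmo2Tg library that held more Lmo2 and without either Lmo2Tg;p21-/- library. Each of these fits left 1 library in a group and called fewer of all genes as well. Why the calls were lost was not tested. In these fits the log2 fold changes were 0.58, 0.82 and 0.87 for Aldh1b1 and 0.46, 0.67 and 0.62 for P2rx7. Leaving out the Lmo2Tg library that held less Lmo2 also left 1 library in a group, with log2 fold changes of 1.20 and 0.88. With only the 4 transgenic libraries in the fit they were 0.84 (adjusted p = 0.0617) and 0.64 (adjusted p = 0.0575). Without the Lmo2Tg library that held less Lmo2, Cpa3 was called as well (log2 fold change 1.04, adjusted p = 0.0229). Lmo2 itself was 0.44 ± 0.30 higher on the log2 scale in Lmo2Tg;p21-/- cells (adjusted p = 0.385). Markers of other cells differed in the same contrast. Lyz2, the lysozyme gene of myeloid cells, was at 5.77 and 6.15 CPM in Lmo2Tg and 13.0 and 17.9 CPM in Lmo2Tg;p21-/- cells and was the 1 of 6 myeloid genes called (log2 fold change 1.38, edgeR adjusted p = 0.00308). Of the NK and innate lymphoid list 1 of 3 fell, Id2 (-1.95, adjusted p = 0.00565). Of 11 DN3 markers 1 rose, Rag2 (1.11, adjusted p = 0.0147), as did 1 of 5 DP markers, Ccr7 (1.24, adjusted p = 0.0318), and 0 genes of the other 9 marker lists were called. The part of Lmo2 or of these markers in the differences of Aldh1b1 and P2rx7 was not tested.

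Whether p21 loss acted differently with and without the transgene was tested as an interaction. None of the 10 genes passed in edgeR, where 1.38% of all genes did, and 4 of 10 had an unadjusted p under 0.05, as did 2148 of all 11840 genes (18.1%). Aldh1b1 came nearest (difference of log2 fold changes 1.01 ± 0.23, adjusted p = 0.0654). Mgst2 (0.60 ± 0.18, adjusted p = 0.120) and Gsn (0.62 ± 0.18, adjusted p = 0.121) followed. Aldh1b1 was the 1 of 10 called by DESeq2, which called 459 of all 11840 genes. The limma-voom fit called 0 of 10 and 109 of all genes.

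**Figure D3:**
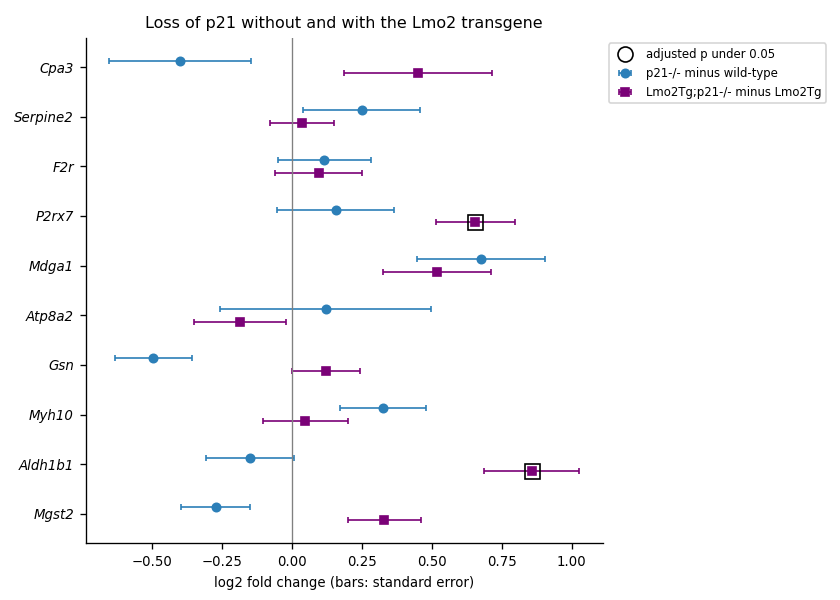
Log2 fold change of the 10 genes on loss of p21, with circles for p21-/- minus wild-type and squares for Lmo2Tg;p21-/- minus Lmo2Tg and bars of 1 standard error. An outline marks an adjusted p under 0.05, which only Aldh1b1 and P2rx7 reached, both with the transgene.

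The comparison of cells that had kept the GFP label with cells that had diluted it asked how the genes differ with division among cells that all carry the transgene. The 10 genes did not move together. Aldh1b1, Mgst2 and Cpa3 were lower in all 3 GFPhi libraries than in any GFPlo library and F2r was higher in all 3. Serpine2, Atp8a2, P2rx7 and Gsn were higher in GFPhi replicates 1 and 2 and lower in GFPhi replicate 3, Mdga1 went the opposite way, and Myh10 was level except in GFPhi replicate 3. With all 6 libraries 1 of 10 genes was called, Aldh1b1, which was lower, beside 14.9% of all genes and 9.49% called lower. DESeq2 called 4 (Aldh1b1, Mgst2, Cpa3 and F2r), and over all 11581 genes it called 2913. The limma-voom fit called 1 of the 10 and 1795 of all genes. Without GFPhi replicate 3, 9 of 10 were called, 5 higher and 4 lower, beside 41.3% of all genes (19.5% higher, 21.7% lower).

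Aldh1b1 was at 224, 253 and 241 CPM in GFPlo replicates 1 to 3 and at 160, 142 and 134 CPM in GFPhi replicates 1 to 3. The groups were well apart and the log2 fold change was -0.72 ± 0.09 (SE, n = 3 and 3, edgeR adjusted p = 0.00638). It was called whichever library was left out, with adjusted p of at most 0.0480. Mgst2 was at 102, 104 and 93.7 CPM in GFPlo and 67.9, 73.3 and 35.4 CPM in GFPhi cells. It did not overlap either, but the spread between GFPhi libraries was wide, and in edgeR it passed only without GFPhi replicate 3 (log2 fold change -0.76 ± 0.26, adjusted p = 0.105, against -0.49 ± 0.07, adjusted p = 0.00200). The pair with the smallest fold with the transgene was thus lower in GFPhi libraries, as was Cpa3, the mast cell peptidase gene, at 935, 779 and 792 CPM in GFPlo and 669, 623 and 505 CPM in GFPhi cells. Cpa3 had a log2 fold change of -0.48 ± 0.13 (adjusted p = 0.0575), and of -0.36 ± 0.09 without GFPhi replicate 3 (adjusted p = 0.0186).

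F2r, the thrombin receptor gene, was at 415, 344 and 316 CPM in GFPlo and 553, 433 and 661 CPM in GFPhi cells, so that GFPhi replicate 3 was the highest of the 6. Its log2 fold change was 0.62 ± 0.18 (adjusted p = 0.0677), and 0.47 ± 0.14 without GFPhi replicate 3 (adjusted p = 0.0349). In this way 3 of the 10 genes were lower and 1 higher in every GFPhi library, while over all genes 21.7% were lower and 19.6% higher.

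Serpine2, the gene for the thrombin inhibitor, had the widest range. It was at 74.8, 46.9 and 39.1 CPM in GFPlo cells, at 277 and 271 CPM in GFPhi replicates 1 and 2, and at 5.07 CPM in GFPhi replicate 3. The last value was 7.72-fold below the lowest of the other 5 libraries. Its log2 fold change was 1.78 ± 1.16 over all libraries (adjusted p = 0.330), 0.52 over the same libraries in limma-voom, and 2.36 ± 0.24 without GFPhi replicate 3 (adjusted p = 0.000616). Atp8a2, the flippase gene, was at 216, 169 and 148 CPM in GFPlo cells and 448, 441 and 27.3 CPM in GFPhi cells, and P2rx7, the ATP-gated channel gene, at 231, 167 and 127 CPM and 452, 416 and 30.3 CPM. Both were higher by 1.33 and 1.32 on the log2 scale without GFPhi replicate 3 (adjusted p = 0.000745 and 0.00388) and did not pass with it (0.78 each, adjusted p = 0.569 and 0.565). In limma-voom with all 6 libraries their log2 fold changes were 0.0020 and 0.076.

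Gsn was at 122, 95.2 and 74.0 CPM in GFPlo and 144, 139 and 15.7 CPM in GFPhi cells. Its log2 fold change was 0.039 ± 0.73 (adjusted p = 0.976) and fell below 0 in limma-voom (-0.47) and when GFPlo replicate 3 (-0.12), GFPhi replicate 1 (-0.32) or GFPhi replicate 2 (-0.28) was left out. It was 0.55 ± 0.18 without GFPhi replicate 3 (adjusted p = 0.0474). The 923 genes tested on chromosome 2, where Gsn lies, had a median log2 fold change of -0.18 with all 6 libraries, and relative to it Gsn was at 0.22. Myh10, the myosin gene, was at 364, 344 and 336 CPM in GFPlo and 349 and 343 CPM in GFPhi replicates 1 and 2, which is level, and at 55.6 CPM in GFPhi replicate 3. Its log2 fold change was -0.48 with all 6 libraries (adjusted p = 0.620) and -0.89 in limma-voom. Mdga1 was at 301, 284 and 281 CPM in GFPlo cells, 127 and 64.7 CPM in GFPhi replicates 1 and 2 and 385 CPM in GFPhi replicate 3, the highest of the 6. Its log2 fold change was -0.59 ± 0.61 (adjusted p = 0.537) with and -1.59 ± 0.25 (adjusted p = 0.00349) without that library, and -0.98 with it in limma-voom.

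**Figure D4:**
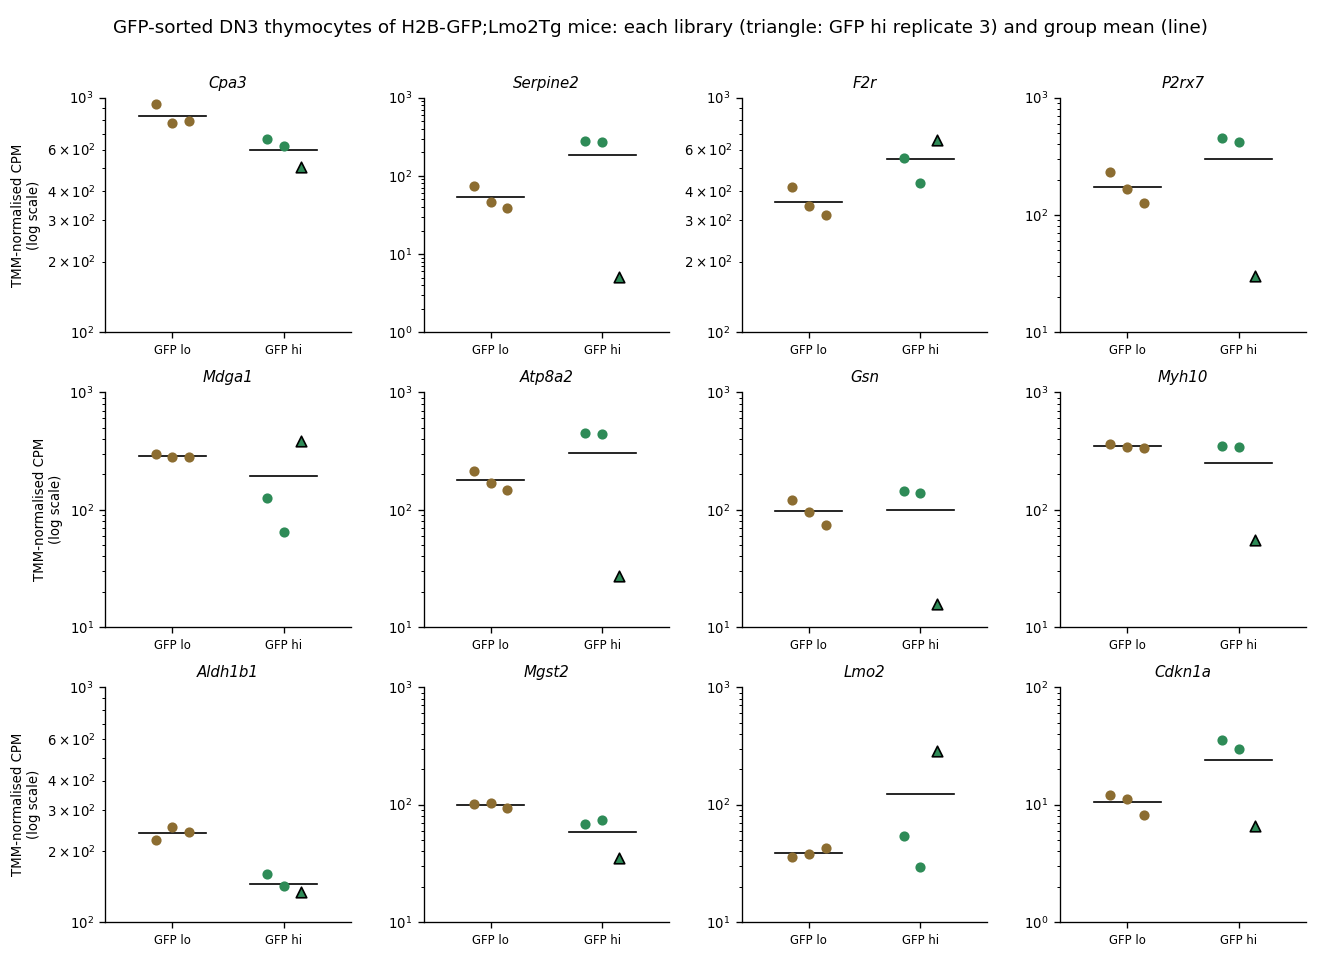
Level of each of the 10 genes, Lmo2 and Cdkn1a in sorted DN3 thymocytes of H2B-GFP;Lmo2Tg mice, as TMM-normalised CPM on a log axis, with a point for each library, a triangle for GFPhi replicate 3 and a line at the group mean. The triangle lies far below all other points for Serpine2, P2rx7, Atp8a2, Gsn and Myh10 and above them for F2r, Mdga1 and Lmo2.

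**Figure D5:**
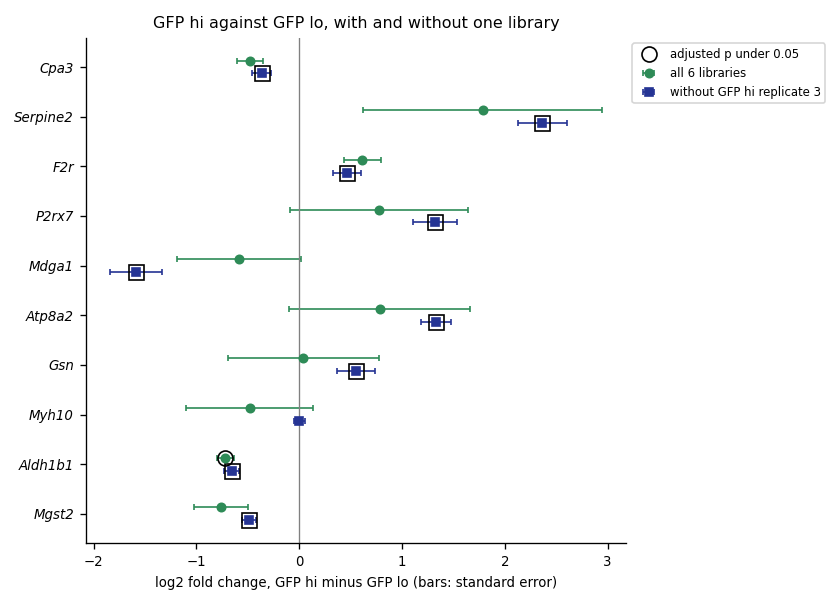
Log2 fold change of the 10 genes for GFPhi minus GFPlo with bars of 1 standard error, with circles for all 6 libraries and squares for the fit without GFPhi replicate 3. An outline marks an adjusted p under 0.05. Aldh1b1 alone passed in both fits and Myh10 in neither.

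In GFPhi replicate 3, 5 of the 10 genes (Serpine2, P2rx7, Atp8a2, Gsn and Myh10) were more than 4-fold below their lowest level in the other 5 libraries, beside 2.06% of all genes, and 0 of 10 were so in any other library. In all, 8 of 10 were below every other sorted library there (28.4% of all genes) and the other 2, F2r and Mdga1, were above every other (28.8%). Lmo2 was at 285 CPM in the same library against at most 53.8 CPM elsewhere. At 5.07 CPM, Serpine2 was still above the 2.05 CPM that was its highest level in total DN3 cells without the transgene, as were Atp8a2 at 27.3 CPM against 1.96 CPM, P2rx7 at 30.3 CPM against 4.81 CPM and Myh10 at 55.6 CPM against 30.9 CPM, in tables normalised apart and from mice of different age. Gsn (15.7 against 9.03 CPM), Cpa3 (505 against 98.8 CPM) and Aldh1b1 (134 against 78.0 CPM) were above too. Mgst2, at 35.4 CPM, lay inside its range of 34.4 to 51.3 CPM without the transgene. Cdkn1a was at 35.8 and 29.9 CPM in GFPhi replicates 1 and 2, at 6.56 CPM in replicate 3, and at 12.0, 11.1 and 8.08 CPM in GFPlo libraries.

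The related genes were read in the sort as well. With all 6 libraries 16 of the 74 tested on 10 lists were called, beside 14.9% of all genes, and without GFPhi replicate 3 45 of 79, beside 41.3% of all genes. The values that follow are from all 6 libraries. The Golgi carboxypeptidase gene Cpd, which was lower with the transgene, was higher in GFPhi cells (log2 fold change 3.01, edgeR adjusted p = 0.00437), as were Gnaq (2.83, adjusted p = 0.0401) and P2rx1 (1.49, adjusted p = 0.00648). Entpd1 was lower in both (-1.90, adjusted p = 0.00672), and so was Aldh7a1 (-1.34, adjusted p = 0.00240). Of the P4-ATPase flippase genes 2 of 10 rose, among them Atp8b2 (0.55, adjusted p = 0.0133). In the LMO2 complex list 1 of 13 fell, the receptor gene Kit (-1.003, adjusted p = 0.0101), and 0 rose. Counts of genes that rose and fell were 1 and 0 of 3 carboxypeptidases, 1 and 0 of 7 gelsolin and actin genes, 0 and 2 of 10 aldehyde dehydrogenases, 0 and 0 of 3 leukotriene enzymes, 1 and 0 of 7 serpins and clotting genes, 2 and 1 of 6 P2X and nucleotide genes, 3 and 1 of 8 receptor and G protein genes, and 1 and 0 of 7 myosin II genes. Without GFPhi replicate 3 these 8 lists had 1 and 2 of 3, 2 and 2 of 8, 3 and 4 of 10, 0 and 2 of 3, 1 and 2 of 8, 5 and 1 of 8, 3 and 2 of 8, and 3 and 0 of 7, in the same order, the flippases 5 and 2 of 10 and the LMO2 complex list 2 and 3 of 14. Cpd (log2 fold change 2.75), Gnaq (1.97), P2rx1 (1.4996), Entpd1 (-2.03), Aldh7a1 (-1.42), Atp8b2 (0.58) and Kit (-0.85) were called without that library too (edgeR adjusted p of at most 0.00662).

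Markers of the cells that the gate could hold were followed in the same libraries, and in bulk RNA fewer cells of a type and less RNA per cell cannot be told apart. Since Cpa3 is a mast cell gene, the mast cell and basophil list was read first. Of its 11 genes, 7 were at 3 reads or fewer in every library of both experiments, among them Ms4a2, Fcer1a, Cma1, Mcpt4, Tpsb2 and Tpsab1. In total DN3 cells Gata2, which is also on the list of the LMO2 complex, and Hdc, the histidine decarboxylase gene, could be tested. Both rose in Lmo2Tg and Gata2 alone in Lmo2Tg;p21-/-. In the sort Gata2 and Il1rl1 could be tested and 0 of 2 were called, and without GFPhi replicate 3 Il1rl1, at 112 reads in GFPhi replicate 1 and 7 to 22 reads in the others, was the 1 of 3 that rose. The list summed to 0.445 to 1.58 CPM without the transgene, 1.44 to 5.21 CPM with it, and 0.521 to 6.94 CPM in the sorted libraries, against 333 to 935 CPM for Cpa3 in cells with the transgene. DN3 markers were all expressed, and summed to 7879 to 8507 CPM without and 5489 to 6211 CPM with the transgene. Of 11, 7 fell and 2 rose in each background (median log2 fold change -0.78 and -0.92), with Ptcra, the pre-T-cell receptor chain, among those that fell (-1.90 and -2.30). In the sort 1 of 11 rose and 0 fell, and 4 rose and 0 fell without GFPhi replicate 3. The part of this shift in the levels of the 10 genes was not tested.

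Markers of early thymic progenitors and stem cells, led by Kit, summed to 97.4 to 127 CPM without and 180 to 318 CPM with the transgene, 361 to 400 CPM in GFPlo and 147 to 237 CPM in GFPhi cells. Of 6 tested, 4 rose and 2 fell in Lmo2Tg, 3 rose and 2 fell in Lmo2Tg;p21-/-, and 0 rose and 1 fell in GFPhi cells (2 and 1 without GFPhi replicate 3). The stromal list, of which 1 of 2 tested rose in both transgene contrasts and 0 in the sort (1 rose and 1 fell without GFPhi replicate 3), went from 67.4 to 81.1 CPM without to 217 to 372 CPM with the transgene, and stood at 703 CPM in GFPhi replicate 3 against 157 to 427 CPM in the other sorted libraries. Nearly all of it was Pdgfrb, since Col1a2, Col3a1, Pdgfra, Dcn and Lum had 3 reads or fewer in every library. For endothelium, Kdr, Tie1 and Emcn were at 3 reads or fewer and Pecam1 made up most of 139 to 155 CPM without, 197 to 263 CPM with the transgene and 193 to 245 CPM in sorted cells. Cdh5, the endothelial cadherin gene, had 18 to 29 reads in each library without the transgene and 0 in each with it. The list for thymic epithelium was also 1 gene, where Foxn1, Krt5, Krt8 and Psmb11 had 3 reads or fewer and Epcam made up most of 36.9 to 79.6 CPM in GFPhi and 16.0 to 22.9 CPM in GFPlo cells. It rose in the sort, with and without GFPhi replicate 3, and fell with the transgene in both backgrounds, from 41.3 to 57.0 CPM without to 14.1 to 19.6 CPM with it.

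B cell markers summed to 29.5 to 39.8 CPM without and 18.4 to 23.2 CPM with the transgene, and to 22.7 to 25.7 CPM in GFPlo and 25.8 to 47.2 CPM in GFPhi cells, in which 3 of 5 tested rose and 0 fell (5 of 6 rose without GFPhi replicate 3). NK and innate lymphoid markers, led by Nkg7, summed to 93.8 to 117 CPM in GFPlo and 175 to 202 CPM in GFPhi cells (1 of 2 tested rose, also without GFPhi replicate 3), and to 53.7 to 63.1 CPM without and 63.2 to 92.8 CPM with the transgene, where 2 of 3 rose in Lmo2Tg and 1 rose and 1 fell in Lmo2Tg;p21-/-. Myeloid markers were at 18.0 to 26.6 CPM without and 24.5 to 36.2 CPM with the transgene, megakaryocyte markers at 0.665 to 2.59 CPM and erythroid markers at 1.63 to 23.4 CPM in total DN3 cells. In sorted cells these lists summed to 10.5 to 16.5 CPM, 0.524 to 1.04 CPM and 2.12 to 10.5 CPM, and 0 genes of the 3 lists were called there with all 6 libraries. Without GFPhi replicate 3, 1 of 5 myeloid genes rose and 1 fell, and 0 of 1 megakaryocyte and 0 of 3 erythroid genes were called. With the transgene, 2 of 6 myeloid genes rose and 1 fell in Lmo2Tg and 3 rose in Lmo2Tg;p21-/-, the 1 megakaryocyte gene tested rose in Lmo2Tg, and 0 of 3 erythroid genes were called. Of 3 B cell genes, 1 fell in both. Markers of DP or later thymocytes were at 29.9 to 50.9 CPM without and 43.7 to 79.6 CPM with the transgene and at 67.9 to 157 CPM in sorted cells, where 1 of 5 tested rose (2 rose and 2 fell without GFPhi replicate 3). With the transgene 2 of these 5 rose in both backgrounds, and 2 fell in Lmo2Tg and 1 in Lmo2Tg;p21-/-. Of the gamma-delta list only Sox13 could be read, at 73.0 to 107 CPM without and 167 to 256 CPM with the transgene, where it rose in both, and at 216 to 296 CPM in sorted cells, where it was not called with or without GFPhi replicate 3. What part any of these lists had in the levels of the 10 genes was not tested.

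Genes that followed the same pattern were looked for among 10554 genes with at least 1 CPM on average in both experiments, by the correlation of their log2 CPM, centred within each experiment, with the mean of the 10 genes, each scaled to the same spread, over all 15 libraries. The 5 highest were Gpr34 (Pearson r = 0.994), Mpp4 (r = 0.993), AB124611 (r = 0.991), Sytl2 (r = 0.989) and Dennd3 (r = 0.989). The points share libraries and the transgene contrast, so r describes likeness only. Gpr34, which encodes a G protein-coupled receptor, went from at most 2.21 CPM without the transgene to at least 54.4 CPM with it, and was at 30.5 CPM in GFPhi replicate 3 against at least 137 CPM in the other sorted libraries. Sytl2, which encodes a Rab effector of vesicle transport, went from at most 28.9 to at least 107 CPM and was at 112 CPM against at least 181 CPM. All 5 were lower in GFPhi replicate 3 than in any other sorted library. That library was among the 15 used to choose them, so these low levels are described only.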

How the data were processed

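The authors deposited, for each experiment, a table of whole-number read counts for the same 22114 genes, not normalised. Per the labels, the processing notes name mm10, STAR 2.4.2a, featureCounts and limma, and the strand setting is given only by the tables' names (none for the genotypes, reverse for the sorted cells). Of 10 genotype samples in the labels, 9 libraries were analysed. The table held 1 further column, whose name is in the form of the Lmo2Tg;p21-/- columns, for which the labels give no sample. It was left out, so that group has 2 libraries, and the p21-/- sample labelled replicate 3 was not analysed here. The Lmo2Tg columns were taken as a group, since their numbers name no single sample. Positions and exon lengths came from GENCODE M21 (21721 genes matched) and promoters from RefSeq (GRCm38.p6).

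After filterByExpr (minimum count 10, minimum total 15), counts were scaled by TMM factors and tested with edgeR 4.0.16 in R 4.3.3 by its quasi-likelihood test, with Benjamini-Hochberg adjustment over all genes tested and calls at 0.05. The genotypes shared 1 fit of 9 libraries and the sorted cells had a fit of 6. Libraries were pools of mice, and p-values measure only the spread between these pools. The 10 genes and all gene lists were chosen with earlier results of these data known. Genes named from the lists were called in the same direction in both transgene contrasts, at most 3 a list by mean log2 fold change, and Kit, Ptcra, Cdh5, Il1rl1, Hdc, Lyz2, Id2, Rag2 and Ccr7 were named after their values were seen. The list for Mdga1 is not reported here. Likeness used log2 CPM with a prior count of 2. On simulated counts with 200 genes changed by 2 on the log2 scale, 197 were called for GFPhi against GFPlo with 9 others, and 200 in each genotype contrast with 6 to 12 others. The simulated spread followed the trend over all genes, and no simulated library stood apart as GFPhi replicate 3 did. These counts therefore do not show how many changed genes would be called in the sorted cells with that library. As alternatives, DESeq2 1.42.0, limma-voom (limma 3.58.1) and RLE scaling were run, as were no filter, a mean of at least 1 CPM, a stricter call (adjusted p under 0.01 and fold over 2), only the libraries compared, the replicate number as a block, each library left out, and values relative to the median of the gene's chromosome. Figures used matplotlib 3.10.9 in Python 3.11.15.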

Additional observations from a re-analysis of the deposited data

How the results depend on the processing

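Calls among the 10 genes depended most on GFPhi replicate 3. For GFPhi against GFPlo, 1 of 10 was called with all libraries, 1 to 9 when each library was left out, 4 in DESeq2 (Cpa3, Mgst2, Aldh1b1 and F2r) and 0 under the stricter call. Over all genes, 1721 were called, 273 to 4848 when each library was left out, 2913 in DESeq2 and 261 under the stricter call. For Lmo2Tg;p21-/- against Lmo2Tg, 2 of 10 were called, 0 to 3 with each library left out, and 0 under the stricter call or with only the libraries compared. Over all genes there were 822, 60 to 1128 with each library left out, 97 under the stricter call and 404 with only the libraries compared. For p21-/- against wild-type, 13 genes were called, 8 to 18 with each library left out, 20 in DESeq2 and 21 without the filter, with 0 of the 10 genes in these. For the interaction, 163 genes were called, 0 to 449 with each library left out, 459 in DESeq2, 520 without the filter and 0 under the stricter call, and of the 10 genes 0, 0 to 2, 1, 2 and 0. The transgene contrasts, used for the lists only, had 4329 genes called (2815 to 4248 with each library left out, 1153 under the stricter call) and 3639 (1914 to 4251, and 983).

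Both sorted fractions came from 3 cohorts of mice, but no source used here says that a replicate number marks a cohort. Same-numbered GFPhi and GFPlo libraries deviated from their group means with correlations of 0.070, -0.079 and 0.099, so the numbers were not taken as pairs, which does not show that the libraries were unpaired. Not every library correlated best with its own number. With the replicate block, 496 genes were called for GFPhi against GFPlo, Aldh1b1 among them as the 1 of 10, and 34 for p21-/- against wild-type, with Cpa3 as the 1 of 10 (0 without the block). For GFPhi against GFPlo the block also moved the log2 fold change of Serpine2 to 0.90, Atp8a2 to 0.15, P2rx7 to 0.18, Mdga1 to -0.99 and Myh10 to -0.83, none of them called.

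Directions turned only for genes that were not called with all libraries, although Gsn was called without GFPhi replicate 3 (adjusted p = 0.0474). Gsn in GFPhi against GFPlo was -0.47 on the log2 scale in limma-voom, -0.41 with the replicate block, and from -0.32 without GFPhi replicate 1 to 0.55 without GFPhi replicate 3. In Lmo2Tg;p21-/- against Lmo2Tg, with each library left out in turn, F2r ranged from -0.11 to 0.32, Serpine2 from -0.043 to 0.11, Gsn from -0.011 to 0.26 and Myh10 from -0.033 to 0.12. Relative to the median of its chromosome (-0.18 to 0.10 over the 9 chromosomes), Gsn in GFPhi against GFPlo moved from 0.039 to 0.22, Mdga1 from -0.59 to -0.44 and Aldh1b1 from -0.72 to -0.82, and none of the 10 genes changed direction. The cause was not tested. Where a group was left with 1 library, its spread was taken from the other groups. No group had more than 3 libraries, which limits what spread can be seen, and the depth of both experiments left each of the 10 genes above the level of 3 reads in all 15 libraries.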
